A study of Mus musculus with 12 samples.

Results

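The macrophage marker genes were the 10 mouse genes Adgre1, Cd68, Csf1r, Lyz2, Mrc1, Cd163, Itgam, Lgals3, Trem2 and Spp1, found by gene ID among the 27179 genes listed in whole tibialis anterior (TA) muscle. Their rule names symbols and uses no measured value, though the set was drawn up with earlier results of these data known. All 10 were among the 15502 genes tested. They fall into 4 roles: Adgre1, Cd68, Csf1r and Lyz2 mark macrophages in general, Mrc1 and Cd163 mark resident macrophages, Itgam is carried by monocytes and newly recruited macrophages, and Trem2, Spp1 and Lgals3 are used for lipid-handling macrophages, with Lgals3 also used for recruited ones.

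Skeletal muscle holds resident macrophages that sit between fibers and along vessels, and many of them carry the scavenger receptors Mrc1 and Cd163. After injury, blood monocytes enter the muscle, turn into macrophages, clear debris and release factors that act on satellite cells, the stem cells of muscle. Macrophages that take up much lipid or debris, in muscle as in fat, artery wall and brain, switch on a program that includes Trem2, Spp1, Lgals3, Gpnmb, Apoe and lysosomal genes.

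The question was whether forced expression of FRAIL1, a human long noncoding RNA, in mouse muscle altered these mRNAs. In each of 6 wild-type male C57BL/6N mice, obtained at 6 to 8 weeks of age, 1 TA received 10 μg of empty plasmid (pcDNA3; Control) and the other TA received 10 μg of plasmid for full-length human FRAIL1 behind the CMV promoter. Both legs therefore carried the injections of hyaluronidase and plasmid and the electroporation, and no untouched muscle was included here. Both TAs were taken at day 7, and polyadenylated RNA was sequenced from the whole muscle, that is from transfected and untransfected fibers and every other cell in it. In such bulk samples, more cells of a type and more RNA per cell cannot be told apart. The human FRAIL1 transcript is not among the mouse genes listed, so the labels were not checked against it. Muscles with the same number were treated as those of 1 mouse in a second fit (the block), because every mouse gave 1 muscle to each group, but the labels do not state that the number marks the mouse.

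Library totals were 45018389 to 59309210 counts in the 6 Control muscles and 44848322 to 60527385 in the 6 FRAIL1 muscles. FRAIL1 5 stood apart on the first principal component (32.4% of the variance) at 59.5, the next muscle being at 25.8. Levels are given as CPM, the read counts relative to the library total after scaling with the TMM method, and changes as log2 fold change of FRAIL1 over Control with its standard error (SE). The whole-muscle label was borne out by fiber mRNAs: Ckm, muscle creatine kinase, stood at 12444 ± 964 CPM in Control muscles (SD, n = 6). Over all genes tested, the quasi-likelihood test of edgeR, with p-values adjusted after Benjamini and Hochberg, put 6.28% past an adjusted p of 0.05, 4.43% as higher and 1.85% as lower in FRAIL1 muscles, and the median log2 fold change was 0.0096.

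Per kilobase of exon, Lyz2, Lgals3 and Cd68 had the highest mean levels of the markers in the Control muscles and Cd163 the lowest. Lyz2, the lysozyme of macrophages and other myeloid cells, had 86.4 ± 17.1 CPM per kilobase (SD, n = 6), and Lgals3, the galactoside-binding lectin galectin-3, had 22.2 ± 5.91. Cd68, a glycoprotein of macrophage lysosomes, had 11.99 ± 2.71. Their ranges did not overlap, so the order Lyz2, Lgals3, Cd68 held in all 6 Control muscles. Spp1 (9.86 ± 7.88 CPM per kilobase), Adgre1 (6.47), Csf1r (6.07), Trem2 (3.99), Itgam (3.21) and Mrc1 (3.05) followed, each overlapping its neighbor in this order. Spp1 overlapped Cd68 as well, with a highest value of 25.6 against 14.8. Cd68 was the higher of the 2 in 5 of 6 Control muscles. Cd163 was lowest at 1.23 ± 0.206 CPM per kilobase and lay below Mrc1 in all 6.

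For 3 of the 10 genes the level may carry a further uncertainty, since other gene models overlap their exons in the GENCODE annotation of GRCm38. The counts are listed by NCBI Gene ID, and whether the annotation used for counting holds these models was not checked. Gm49368 covers 70.0% of the exon length of Itgam (chr7:128062640-128118491). Hmgxb3 covers 17.9% of Csf1r (chr18:61105572-61131139), and Gm42793 covers 18.75% of Spp1 (chr5:104435111-104441053). How reads in these stretches were assigned was not analysed here, nor is it given whether the counting used strand. The other genes share no exon with another model: Adgre1 (chr17:57358581-57483529), Cd68 (chr11:69664213-69666170), Lyz2 (chr10:117277541-117282272), Mrc1 (chr2:14229414-14332023), Cd163 (chr6:124304636-124330529), Lgals3 (chr14:47373860-47386167) and Trem2 (chr17:48346401-48352276).

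Of the 10 markers, 9 had a log2 fold change above 0, against 51.6% of all genes tested, and their median was 0.73. Only Lgals3 passed the threshold, 1 of 10 against 4.43% of all genes called higher, and none was called lower. With the muscle number as a block, 5 of 10 were higher (Adgre1, Csf1r, Lyz2, Lgals3 and Trem2), against 7.48% of all genes in that fit. DESeq2's Wald test called 6 higher, against 8.37% of all genes, and 7 with the block, against 9.71%. Limma voom called 2 (6.08% of all genes), a fit of edgeR that was not robust 3 (4.77%), and edgeR without a filter on low counts 0 (2.67%). Without FRAIL1 3, edgeR called 6 (7.87%), and without any 1 of 8 other muscles it called 0. At an unadjusted p under 0.05, 7 of 10 were higher (all but Mrc1, Cd163 and Itgam), against 15.2%. The groups overlapped for all 10, whereas 3.12% of all genes had every FRAIL1 muscle above every Control muscle. Summed, the markers had 199 to 336 CPM in Control and 263 to 1027 CPM in FRAIL1 muscles. Adgre1, Cd68, Lyz2, Lgals3, Trem2 and Spp1 were higher in the FRAIL1 muscle of all 6 numbers, as were 11.5% of all genes.

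**Figure D1:**
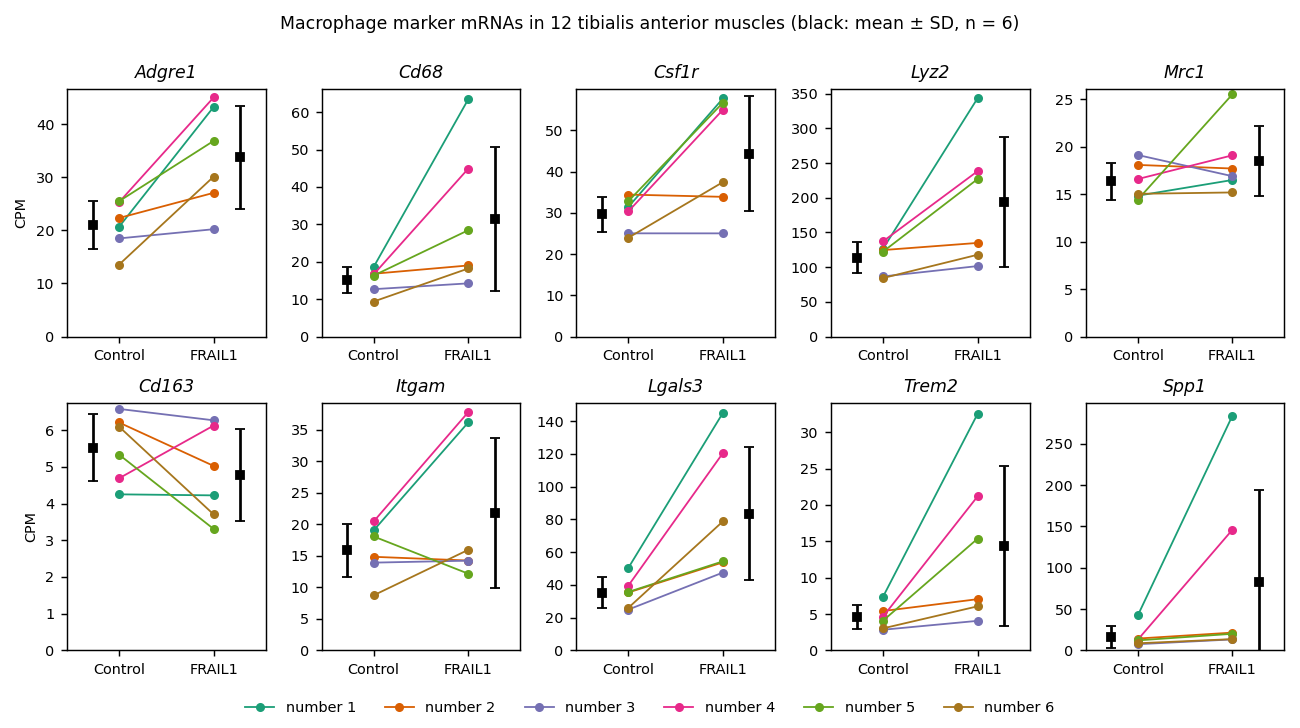
CPM (vertical axes, from 0, each panel with its own scale) of the 10 markers in Control and FRAIL1 muscles. Points are muscles, lines join muscles with the same number, and black squares with bars are the mean ± SD (n = 6; the lower bar of Spp1 in FRAIL1 is cut off at 0). The lines of numbers 1 and 4 climb most for Cd68, Itgam, Lgals3, Trem2 and Spp1. The lines of Mrc1 and of Cd163 run in both directions. Number 5 of Mrc1 climbs to 1.77 times its Control muscle, and numbers 5 and 6 of Cd163 fall to 0.62 and 0.61 times theirs.

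Among the general markers, Adgre1, the gene of the F4/80 surface receptor, ranged from 13.5 to 25.5 CPM in Control muscles (median 21.5) and from 20.2 to 45.04 in FRAIL1 muscles (median 33.5). FRAIL1 4, 1, 5, 6 and 2 lay above the highest Control muscle, and only FRAIL1 3 lay among the Controls. The log2 fold change was 0.69 (SE 0.20), with an adjusted p of 0.061 by edgeR's quasi-likelihood test and 0.021 with the block. Csf1r, the receptor for the growth factors CSF1 and IL-34 on which macrophages depend, ranged from 24.0 to 34.4 CPM in Control (median 30.9) and from 25.0 to 57.7 in FRAIL1 muscles (median 46.2). FRAIL1 1, 5 and 4 reached 55.01 CPM or more, FRAIL1 6 stood at 37.5, and FRAIL1 2 and 3 were no higher than the Control muscles of their numbers, at 33.9 against 34.4 and 25.0 against 25.0. The log2 fold change of Csf1r was 0.58 (SE 0.20), with an adjusted p of 0.087 by edgeR's quasi-likelihood test and 0.044 with the block.

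Cd68 had 9.37 to 18.6 CPM in Control (median 16.5) and 14.2 to 63.5 CPM in FRAIL1 muscles (median 23.7). FRAIL1 1 was highest at 63.5 and FRAIL1 4 next at 44.9, and FRAIL1 3 and 6 remained inside the Control range. Its log2 fold change was 1.06 (SE 0.35), short of the threshold by edgeR's quasi-likelihood test both without the block (adjusted p 0.085) and with it (0.053). Lyz2 had 84.3 to 137 CPM in Control (median 124) and 102 to 344 CPM in FRAIL1 muscles (median 181). FRAIL1 1, 4 and 5, at 344, 238 and 227 CPM, lay above every Control muscle and the other 3 did not. Its log2 fold change was 0.77 (SE 0.28), with an adjusted p of 0.107 by edgeR's quasi-likelihood test and 0.040 with the block.

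The resident markers differed less between the groups. Mrc1, the mannose receptor CD206, had 14.4 to 19.1 CPM in Control muscles (median 15.8) and 15.2 to 25.5 in FRAIL1 muscles (median 17.3). Only FRAIL1 5, at 25.5 CPM, lay above every Control muscle. The log2 fold change of Mrc1 was 0.18 (SE 0.12), with an adjusted p of 0.337 by edgeR's quasi-likelihood test. Cd163, the scavenger receptor for hemoglobin bound to haptoglobin, had 4.25 to 6.58 CPM in Control muscles (median 5.72) and 3.31 to 6.27 in FRAIL1 muscles (median 4.63). Its level was below that of the Control muscle in 5 of 6 numbers and lowest in FRAIL1 5, the muscle with the highest Mrc1. Its log2 fold change was -0.21 (SE 0.17), with an adjusted p of 0.432 by edgeR's quasi-likelihood test, and it was the only marker of the 10 with a value below 0.

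Itgam, the αM chain of the integrin CD11b/CD18 on monocytes, macrophages and neutrophils, had 8.73 to 20.4 CPM in Control muscles (median 16.4) and 12.2 to 37.8 CPM in FRAIL1 muscles (median 15.1). Only FRAIL1 4 and 1, at 37.8 and 36.1 CPM, lay above the Control range, and the median was lower in FRAIL1 muscles while the mean was higher. The log2 fold change was 0.46 (SE 0.33), with an adjusted p of 0.392 by edgeR's quasi-likelihood test. Without FRAIL1 muscles 1 and 4 it was -0.16.

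Lgals3 had 24.9 to 50.4 CPM in Control muscles (median 35.5) and 47.5 to 145 in FRAIL1 muscles (median 66.6). Each FRAIL1 muscle had at least 1.52 times the level of the Control muscle of its number, up to 3.05 times for number 4, and only FRAIL1 3 lay within the Control range, below Control 1. The log2 fold change was 1.24 (SE 0.30), with an adjusted p of 0.036 by edgeR's quasi-likelihood test and 0.011 with the block. The call was lost in 8 of the 12 fits that left out 1 muscle (Control 2, 3, 4, 5 or 6, or FRAIL1 1, 4 or 6), with an adjusted p of up to 0.074 by edgeR's quasi-likelihood test and a log2 fold change of 1.004 to 1.37 over the 12 fits.

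Trem2, the lipid-sensing receptor of macrophages and microglia that signals through Tyrobp, had 2.84 to 7.39 CPM in Control muscles (median 4.37) and 4.06 to 32.5 in FRAIL1 muscles (median 11.2). FRAIL1 1, 4 and 5, at 32.5, 21.2 and 15.4 CPM, lay above every Control muscle. The ratio to the Control muscle of the same number was 4.41, 4.56 and 3.76 for these, and 1.30, 1.43 and 2.001 for numbers 2, 3 and 6. Its log2 fold change was 1.65 (SE 0.49), with an adjusted p of 0.063 by edgeR's quasi-likelihood test and 0.029 with the block.

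Spp1, the secreted matrix protein osteopontin, had the highest fold change of the 10 and the widest spread. The Control muscles had 7.43 to 14.3 CPM apart from Control 1, at 42.2 CPM, and the FRAIL1 muscles had 13.3 to 284 CPM (median 20.8). FRAIL1 1 and 4 stood at 284 and 146 CPM, while FRAIL1 2, 5, 6 and 3, at 21.5, 20.04, 13.6 and 13.3 CPM, lay within the Control range. Within a number, the FRAIL1 muscle had 1.503 to 11.3 times the level of the Control muscle. The log2 fold change was 2.35 (SE 0.90), with an adjusted p of 0.124 by edgeR's quasi-likelihood test and 0.105 with the block, where the fold change was 1.52 on the log2 scale (SE 0.51). Without FRAIL1 muscles 1 and 4, the log2 fold change was 0.071. Without both muscles of numbers 1 and 4 and with the block, it was 0.70, with an adjusted p of 0.049 by edgeR's quasi-likelihood test.

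**Figure D2:**
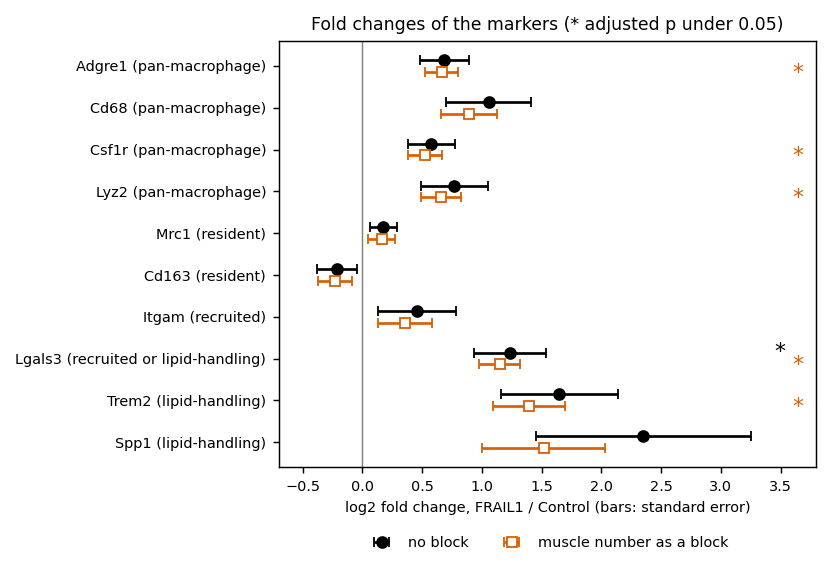
Log2 fold change of each marker (horizontal axis) with its standard error, from the fit without the muscle number (black circles) and with it as a block (orange squares). Asterisks mark an adjusted p under 0.05 in the fit of their color: Lgals3 alone without the block, and 5 markers with it.

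The FRAIL1 muscles differed among themselves. FRAIL1 1 held the highest level of all 12 muscles for 6 of the 10 markers, FRAIL1 4 for 2, FRAIL1 5 for Mrc1 and Control 3 for Cd163. FRAIL1 1, 4 and 5 lay above every Control muscle for 8, 8 and 7 markers, FRAIL1 2 and 6 for 3 each, and FRAIL1 3 for none; FRAIL1 3 was the lowest of its group for 7 markers. FRAIL1 5 differed in kind from FRAIL1 1 and 4: its Csf1r, at 56.7 CPM, was as high as theirs, but its Itgam, at 12.2 CPM, was the lowest of the FRAIL1 group and its Spp1 was 20.04 CPM. No marker was past the threshold when FRAIL1 1 and 4 were left out, a choice made after their levels were seen, against 0.902% of all genes called higher in that fit. With the block and without both muscles of numbers 1 and 4, Spp1 alone was past it, against 0.0643% of all genes.

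**Figure D3:**
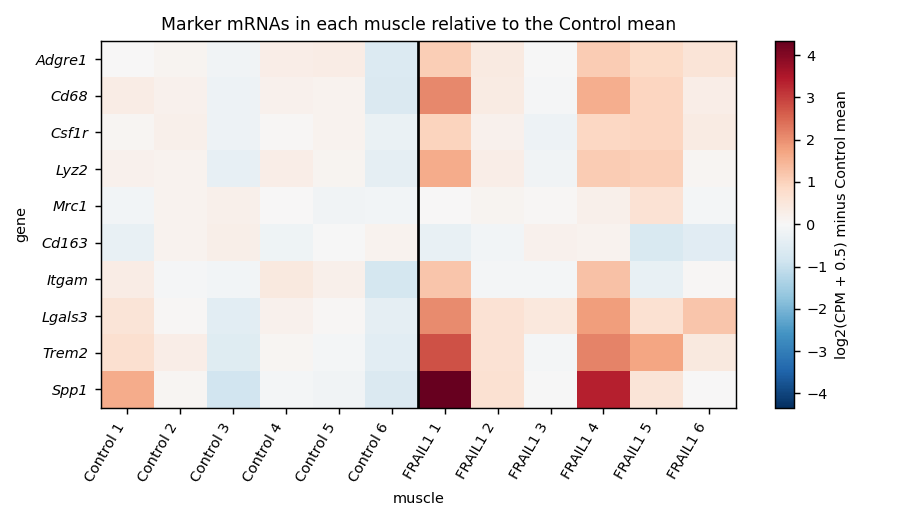
log2(CPM + 0.5) of each marker (rows) in each muscle (columns), minus the mean of the 6 Control muscles; red is higher and blue lower. FRAIL1 1 and 4 are red for all rows except Mrc1 and Cd163, FRAIL1 5 is red for the general markers and Trem2 but not Itgam, and FRAIL1 3 is close to white for most rows.

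After the group means were taken out, the markers other than Mrc1 and Cd163 mostly varied together from muscle to muscle. Of 45 pairs, 34 had a positive Pearson correlation and the median r was 0.72 (n = 12 muscles, which come in pairs from 6 mice and are not fully independent). In permutation tests within groups (2-sided, 100000 draws, adjusted over the 45 pairs), 22 pairs passed an adjusted p of 0.05 by Pearson's r and 21 by Spearman's rho. The share of pairs of other genes that would pass was not measured, so these counts do not set the markers apart from other genes. Lyz2 and Trem2 had r = 0.964 and rho = 0.944 (permutation test, adjusted p 0.0016 and 0.011), and r was 0.921 without FRAIL1 1 and 3. Cd68 and Trem2 had r = 0.962 and rho = 0.916, and r = 0.919 without the same muscles. Trem2 and Spp1 had r = 0.902 and rho = 0.853, and r = 0.837 without them. Mrc1 and Cd163 did not share in this: none of their 17 pairs passed the threshold, their r lay between -0.44 and 0.34, and with each other r was -0.047 and rho 0.24.

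The sequences upstream of the start sites of a few markers are shown because these genes varied together or stood apart. Cd68, Trem2 and Spp1 varied together between muscles, and Mrc1 and Cd163 did not. Each run is the 250 bases before the RefSeq start site on the strand of the gene (build GRCm38.p6), 5′ to 3′: Cd68 at chr11:69666171-69666420 on the minus strand, and on the plus strand Trem2 at chr17:48346151-48346400, Spp1 at chr5:104434861-104435110, Mrc1 at chr2:14229164-14229413 and Cd163 at chr6:124304401-124304650. Capitals mark GAGGAA, the core of sites for PU.1 (a factor of the myeloid lineage), and TGANTCA, on either strand. In TGANTCA, N is any base, so this pattern is looser than the AP-1 site, which has C or G there. The 2 matches of Cd68 read TGAGTCA, an AP-1 site, and that of Trem2 reads TGAATCA, which is not one.
Cd68: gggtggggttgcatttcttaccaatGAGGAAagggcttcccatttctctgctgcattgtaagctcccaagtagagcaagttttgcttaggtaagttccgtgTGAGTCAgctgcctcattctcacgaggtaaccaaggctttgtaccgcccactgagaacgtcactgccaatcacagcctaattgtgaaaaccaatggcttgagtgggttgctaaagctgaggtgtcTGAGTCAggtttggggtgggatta
Trem2: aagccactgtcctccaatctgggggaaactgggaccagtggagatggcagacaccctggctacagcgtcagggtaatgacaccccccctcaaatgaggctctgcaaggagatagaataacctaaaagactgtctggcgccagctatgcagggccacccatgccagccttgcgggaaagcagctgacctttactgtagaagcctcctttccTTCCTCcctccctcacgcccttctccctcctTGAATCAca
Spp1: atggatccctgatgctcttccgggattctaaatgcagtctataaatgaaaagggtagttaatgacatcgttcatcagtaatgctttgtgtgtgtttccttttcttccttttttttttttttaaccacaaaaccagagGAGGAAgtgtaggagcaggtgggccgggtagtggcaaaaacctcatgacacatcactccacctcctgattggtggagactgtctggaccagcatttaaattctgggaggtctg
Mrc1: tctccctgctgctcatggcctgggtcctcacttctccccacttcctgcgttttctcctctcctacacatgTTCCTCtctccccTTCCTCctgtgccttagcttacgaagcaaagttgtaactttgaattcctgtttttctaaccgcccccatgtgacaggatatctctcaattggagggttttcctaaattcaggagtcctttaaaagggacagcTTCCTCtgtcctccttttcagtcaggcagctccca
Cd163: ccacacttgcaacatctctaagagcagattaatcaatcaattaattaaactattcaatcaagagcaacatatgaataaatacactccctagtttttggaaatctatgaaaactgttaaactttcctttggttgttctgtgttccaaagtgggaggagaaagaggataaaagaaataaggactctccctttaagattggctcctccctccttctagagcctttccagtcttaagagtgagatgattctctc

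Upstream windows were available for 8 of the 10 markers (9 windows, since Spp1 has a pair of start sites), and not for Adgre1 and Csf1r. GAGGAA occurred in 5 of the 9 windows (Cd68, Mrc1, Itgam, Trem2 and the first start site of Spp1), against 23.3% of the 32851 windows of all genes. TGANTCA occurred in 2 of 9, Cd68 and Trem2, against 6.75%. CACGTG, an E-box bound by lysosomal gene regulators among others, occurred in none of the 9, against 6.02%. The motifs were searched on both strands and none overlaps another in these runs. The windows of Lyz2, Cd163, Lgals3 and the second start site of Spp1 held none of these letters. The pair Cd68 and Trem2, with r = 0.962, has TGANTCA in both windows, as TGAGTCA in Cd68 and TGAATCA in Trem2. The pair Lyz2 and Trem2, with r = 0.964, has it in the window of Trem2 only. Mrc1, which did not vary with the others, holds GAGGAA 3 times, the most of any window. The second window of Spp1 lies in annotated exons over all its 250 bases. The windows of Lyz2, Lgals3, Cd163 and Mrc1 hold 49, 47, 28 and 22 bases of annotated exons. That of Cd163 ends at 124304650, past the gene start of 124304636 given above. Whether the motifs bear on the correlations was not tested.

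To set the states against each other within a muscle, 4 ratios were formed of log2(CPM + 0.5), each a recruited or lipid-handling gene against a resident or general one. Trem2 to Mrc1 was -1.79 ± 0.53 in Control and -0.68 ± 1.06 in FRAIL1 muscles (mean ± SD, n = 6), higher by 1.11 on the log2 scale. In Control muscles it ran from -2.56 to -0.96, and FRAIL1 1, 4 and 5 lay above that range. Lgals3 to Adgre1 was 0.73 ± 0.32 in Control and 1.21 ± 0.41 in FRAIL1 muscles, higher by 0.48. Here FRAIL1 1, 4 and 6 lay above the Control range of 0.42 to 1.27, and FRAIL1 5 was lowest of its group at 0.55. The 2-sided exact permutation test over muscles gave p = 0.041 and 0.045 for these (n = 6 per group), and 0.091 for both after adjustment over the 4 ratios.

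Spp1 to Cd163 was 1.23 ± 1.05 in Control and 2.93 ± 1.87 in FRAIL1 muscles, higher by 1.69 (exact permutation test, p = 0.084, adjusted 0.113). FRAIL1 1 and 4 lay above the Control range and the other 4 within it. Itgam to Csf1r was -0.92 ± 0.32 in Control and -1.10 ± 0.60 in FRAIL1 muscles, a difference of -0.18 (exact permutation test, p = 0.602). FRAIL1 5, at -2.18, lay below all other muscles, and without it the difference was 0.037. Within a number, the ratios of Trem2 to Mrc1, Lgals3 to Adgre1 and Spp1 to Cd163 were each higher in the FRAIL1 muscle in 6 of 6 numbers. An exact permutation of signs within numbers then gave p = 0.031 for each, the smallest that 6 pairs allow, and 0.042 after adjustment over the 4 ratios.

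**Figure D4:**
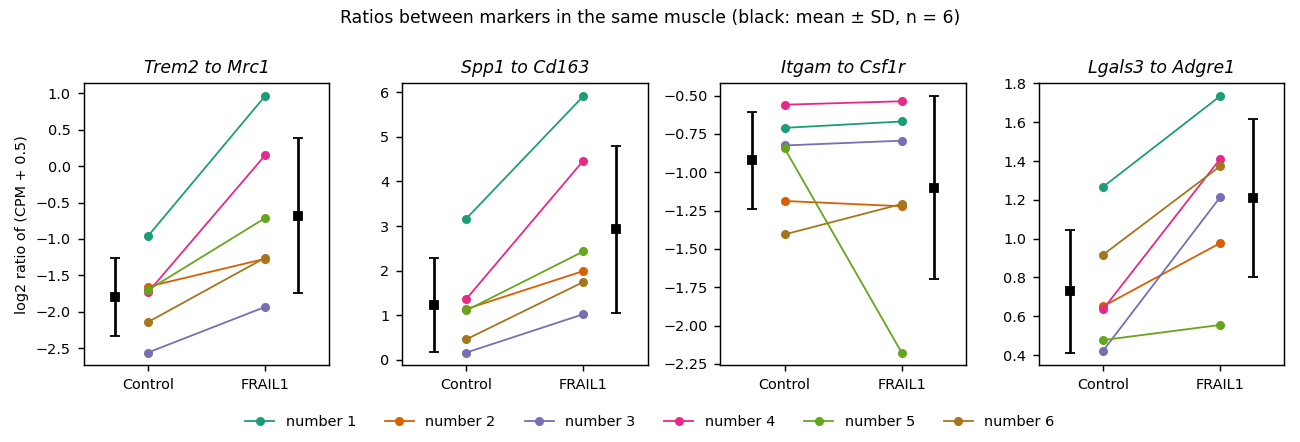
Log2 ratio of one marker to another in the same muscle, from CPM + 0.5, by group; lines join muscles with the same number and black squares with bars are the mean ± SD (n = 6). All 6 lines climb for Trem2 to Mrc1, Spp1 to Cd163 and Lgals3 to Adgre1, and number 5 falls for Itgam to Csf1r.

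By likeness of pattern over the 12 muscles with group means removed, among 13000 genes with a mean of at least 1 CPM, Adgre1 was closest to Clec4a1 (r = 0.969), Pkib (0.968) and Tmem106a (0.967). Trem2 was closest to Myo5a, a motor protein of vesicle transport (0.971), Soat1, which esterifies cholesterol for storage in droplets (0.968), and Slc37a2, a sugar-phosphate transporter (0.963). Spp1 was closest to F10, coagulation factor X (0.982), Gpnmb, a lysosomal and surface glycoprotein (0.972), and Mfsd12, a lysosomal transporter (0.968). F10 was at 3.70 CPM in FRAIL1 1 and 2.69 in FRAIL1 4, against 0.326 to 0.551 in the other FRAIL1 muscles. These are descriptions of the best matches out of many, so the r values carry no test. Without the 2 muscles with the most extreme Spp1, r was 0.948 for F10 and 0.934 for Gpnmb.

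The same roles were followed in wider lists. Of 24 other genes of macrophages in general, none was called by edgeR's quasi-likelihood test. At an unadjusted p under 0.05, 12 were higher, against 15.2% of all genes. With the block 12 were called higher, against 7.48%. DESeq2's Wald test called 7, and 2211 of the 15191 genes it gave an adjusted p. The log2 fold change was above 0 for 23 of these 24 genes, against 51.6% of all genes. Their median was 0.53 against 0.0096 for all genes. C1qa, a chain of complement C1q made by macrophages and named here after its value was seen, had 57.2 ± 11.2 CPM in Control and 92.9 ± 28.6 in FRAIL1 muscles. This was a log2 fold change of 0.70 (SE 0.20), with an adjusted p of 0.059 by edgeR's quasi-likelihood test and 0.010 with the block.

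Of the resident macrophage genes, 12 of 15 could be tested, and none was called by edgeR's quasi-likelihood test or by DESeq2's Wald test. An unadjusted p under 0.05 was found for 2 of the 12, against 4297 of all 15502 genes. The median log2 fold change was -0.15. With the block, Timd4 and Maf were called lower, 2 of 12 against 1027 of all 15502 genes. Timd4, a receptor for phosphatidylserine on long-lived resident macrophages, was low at 0.608 ± 0.181 CPM in Control and 0.310 ± 0.206 in FRAIL1 muscles. Its counts per muscle were 19 to 44 in Control and 8 to 33 in FRAIL1. Timd4 was lower in all 6 numbers, with a log2 fold change of -0.97 (SE 0.37) and an adjusted p of 0.108 by edgeR's quasi-likelihood test, 0.031 with the block. Maf, a transcription factor of resident macrophages that muscle fibers and other cells make as well, went from 150 ± 16.1 to 132 ± 7.16 CPM, which is a log2 fold change of -0.19 (SE 0.071) with an adjusted p of 0.107 by edgeR's quasi-likelihood test and 0.048 with the block. Timd4 and Maf were named after their values were seen.

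Of the 16 recruited monocyte genes, 1 was called higher, against 4.43% of all genes, and the median was 0.073. S100a4, a calcium-binding protein that fibroblasts make too, rose from 14.3 ± 2.27 to 22.7 ± 5.33 CPM, which is a log2 fold change of 0.67 (SE 0.15) with an adjusted p of 0.023 by edgeR's quasi-likelihood test. With the block Vcan, a matrix proteoglycan, was called too, making 2 of 16 against 7.48% of all genes. Ccr2, the chemokine receptor of circulating monocytes, had 23.6 ± 6.73 CPM in Control and 24.0 ± 4.21 in FRAIL1 muscles, and its log2 fold change of 0.024 (SE 0.17) changed sign in some of the fits that left out muscles.

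The lipid-handling list had 8 of 24 genes called higher, against 4.43% of all genes, and none lower, with a median of 0.39. For 5 of the 24, all among the 8 called, every FRAIL1 muscle lay above every Control muscle, against 3.12% of all genes. With the block 10 were higher, against 7.48% of all genes, and Cd36 was lower, as were 1027 of all 15502 genes. Apoe, the apolipoprotein that carries lipid out of macrophages, rose from 268 ± 46.4 to 687 ± 323 CPM, and its FRAIL1 muscles (350 to 1156) all lay above its Control muscles (204 to 324). Its log2 fold change was 1.36 (SE 0.28), with an adjusted p of 0.020 by edgeR's quasi-likelihood test. The cholesterol exporters Abca1 and Abcg1 rose by 0.92 (SE 0.17) and 1.002 (SE 0.24) on the log2 scale, with adjusted p of 0.012 and 0.033 by edgeR's quasi-likelihood test. Abca1 had no overlap between groups, with 11.6 to 16.0 CPM in Control and 16.9 to 41.3 in FRAIL1 muscles. Apoe and Abca1 were highest in FRAIL1 5, at 1156 and 41.3 CPM, and Abcg1 in FRAIL1 1, at 29.6 CPM. The other 5 called were Lgmn, Axl, Ctsl, Cd63 and Ctsb, which are made by many cell types of muscle besides macrophages. Which cells made the mRNAs of the 8 called genes was not tested. Gpnmb followed Spp1: 69.4 CPM in Control 1 and 12.7 to 21.5 in the other Controls, 296 and 180 in FRAIL1 1 and 4 and 16.1 to 49.98 in the other FRAIL1 muscles, with a log2 fold change of 1.89 (SE 0.78) that was not called (adjusted p of 0.147 by edgeR's quasi-likelihood test).

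Among ligands, receptors and recruiting chemokines, 4 of 19 tested genes were called higher, against 4.43% of all genes, and none lower. Cx3cr1, the fractalkine receptor of macrophages and patrolling monocytes, rose from 4.59 ± 0.498 to 8.79 ± 3.25 CPM without overlap, which is a log2 fold change of 0.94 (SE 0.21) with an adjusted p of 0.022 by edgeR's quasi-likelihood test. Receptors for osteopontin, the product of Spp1, made up the other 3, Cd44, Itgav and Itgb1: Cd44 rose by 0.42 (SE 0.10) and Itgav by 0.37 (SE 0.089) on the log2 scale, with adjusted p of 0.032 and 0.028 by edgeR's quasi-likelihood test. All 3 are made by fibroblasts and other cells too. Csf1, the ligand of Csf1r, stood at 22.7 ± 2.25 and 23.0 ± 5.81 CPM, and Ccl2, the ligand of Ccr2, at 5.61 ± 2.39 and 4.41 ± 1.82. Their log2 fold changes were 0.013 (SE 0.14) and -0.35 (SE 0.34), neither called.

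**Figure D5:**
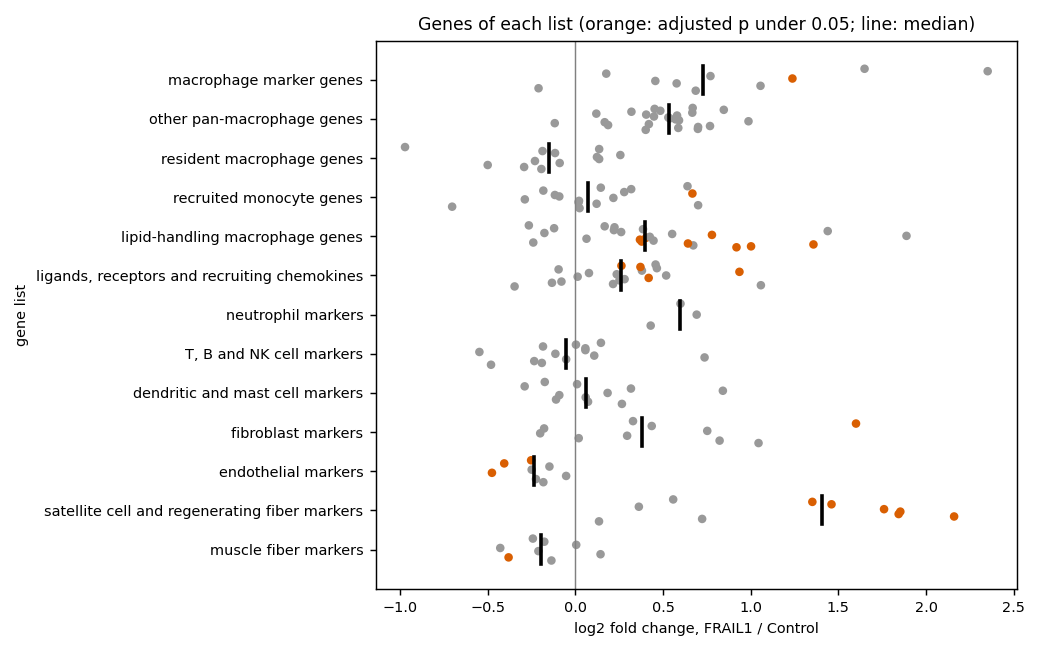
Log2 fold change (horizontal axis) of every tested gene of each list (rows); orange points passed an adjusted p of 0.05 and black lines are list medians. The calls lie mostly in the lists of lipid-handling genes (8) and of satellite cells and regenerating fibers (6), and the resident macrophage list lies on both sides of 0.

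Markers of other cells moved with the group as well, and their part in the marker results was not tested. Only 3 of 10 neutrophil markers were expressed enough to test, and none was called by edgeR's quasi-likelihood test or DESeq2's Wald test or had an unadjusted p under 0.05; summed, the list had 3.47 to 10.4 CPM in Control and 4.73 to 12.6 in FRAIL1 muscles, and Csf3r, the most abundant, had 3.78 ± 1.05 and 5.11 ± 1.81 CPM, and Mmp9, a matrix protease, 1.30 ± 0.305 and 2.11 ± 1.18 CPM. Ly6g, which defines neutrophils, held 7 counts in the 6 Control muscles together and 4 in the 6 FRAIL1 muscles. The same held for the 13 T, B and NK cell genes tested (0 called by each test, 0 at an unadjusted p under 0.05); Gzma stood at 8.34 and 8.68 CPM and Nkg7 at 5.41 and 5.43 CPM in Control and FRAIL1 muscles. With the block, Cd4, which some macrophages carry as well, was called higher, 1 of 13 against 7.48% of all genes. It held for the 11 dendritic and mast cell genes tested too, with Itgax, which macrophages also carry, at 10.4 ± 3.84 and 18.6 ± 13.8 CPM and Kit, a mast cell receptor, at 3.68 ± 0.718 and 4.59 ± 1.41.

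Fibroblast markers had 1 of 10 called, Postn (54.0 ± 12.8 to 164 ± 136 CPM; log2 fold change 1.60, SE 0.42), with an adjusted p of 0.047 by edgeR's quasi-likelihood test and 0.109 with the block. For these lists, the share of all genes called by edgeR's quasi-likelihood test without the block was 4.43% higher and 1.85% lower. Summed, the fibroblast list had 1406 to 2442 CPM in Control and 2515 to 5674 in FRAIL1 muscles. Its most abundant genes, the collagens Col3a1 and Col1a1, had log2 fold changes of 0.82 (SE 0.25) and 1.04 (SE 0.29) that were not called (adjusted p of 0.067 and 0.052 by edgeR's quasi-likelihood test). For both collagens and Postn, 3 of the 10 genes, every FRAIL1 muscle lay above every Control muscle, against 3.12% of all genes. Endothelial markers had 3 of 8 called lower, Flt1 (-0.48, SE 0.12), Tek (-0.41, SE 0.087) and Vwf (-0.25, SE 0.071), with adjusted p of 0.033, 0.019 and 0.048 by edgeR's quasi-likelihood test. That list summed to 445 to 501 CPM in Control and 347 to 437 in FRAIL1 muscles, and its most abundant genes Cdh5 and Pecam1 were not called (-0.18, SE 0.087, and -0.15, SE 0.074). Satellite cell and regenerating fiber genes had 6 of 10 called higher, led by the embryonic myosin Myh3 (2.16, SE 0.37), the fusion protein Mymk (1.85, SE 0.25) and the perinatal myosin Myh8 (1.84, SE 0.39), with adjusted p of 0.012, 0.0026 and 0.023 by edgeR's quasi-likelihood test. Summed, these 10 genes had 212 to 269 CPM in Control and 393 to 1663 in FRAIL1 muscles. For 6 of the 10, every FRAIL1 muscle lay above every Control muscle, against 3.12% of all genes. Of 8 fiber markers Ckm alone was called, lower by -0.38 (SE 0.11; adjusted p of 0.048 by edgeR's quasi-likelihood test), while the more abundant Myh4 (-0.43, SE 0.13) and Acta1 (-0.14, SE 0.081) were not. With the block Myh4 was called lower too, at -0.45 with an adjusted p of 0.033 by edgeR's quasi-likelihood test, and it was lower in all 6 numbers. No gene of these lists was at 0 in all 12 muscles.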

How the data were processed

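RNA-seq was performed on poly(A)+ RNA of 12 TA muscles from 6 mice. According to the labels, the authors trimmed reads with Trimmomatic, mapped them to mm10 with STAR 2.7.8a and counted them per gene with featureCounts 2.0.1, and they deposited raw counts without normalization; whether the counting used strand is not given in the sources used here. The table lists 27179 genes by NCBI Gene ID, of which 25275 matched a symbol, and the rest held 0.280% of the counts. Depth per muscle was 44848322 to 60527385 counts. The error given covers the spread between muscles and the noise of counting reads, which weighs more for genes with few counts.

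Genes were filtered with filterByExpr (minimum count 10; 15502 tested), scaled with TMM and compared in edgeR 4.0.16 (R 4.3.3) by a quasi-likelihood test with a robust fit, with Benjamini-Hochberg adjustment over all genes tested and a threshold of 0.05. SE was the fold change divided by the square root of F. DESeq2 1.42.0 and limma 3.58.1 (voom) were alternatives, with other scalings and filters, the block and muscles left out. Libraries of the same group were distinct (chi-square per degree of freedom 15.5 or more for each pair). Pairs across the groups were not compared. Same-numbered muscles deviated together from their group means with correlations of 0.055 to 0.282, over 0.1 for 5 of 6 numbers; that both muscles came from 1 mouse per number is taken from the design.

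The markers and the 12 further lists were chosen with earlier results of these data known. Named were all 10 markers, up to 3 genes per further list past the threshold with the largest change, the 2 most abundant genes of each list of another cell type, and the 3 genes most like Adgre1, Trem2 and Spp1; Gpnmb, C1qa, Ccr2, Csf1, Ccl2, Timd4, Maf and the other genes named besides these were chosen after their values were seen. Exons came from the GENCODE annotation of GRCm38 and gene positions from RefSeq. Copies were searched with BLAST 2.17.0 (98% identity over 100 bases) and upstream sequences were those of RefSeq.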

Additional observations from a re-analysis of the deposited data

Results flagged for a closer look

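Of 114 groups of 6 muscles checked for named genes, 12 held a muscle set far apart from the others (its gap to the nearest value, relative to the range, past Dixon's critical value). That value flags about 1 group in 20 only for independent values with a normal distribution. Many of these genes were named by their values and most flags fall in 1 muscle, so the rates cannot be compared. Control 1 stood apart for Spp1, with 42.2 CPM against 14.3 in the next Control muscle, and for Gpnmb, with 69.4 CPM against 21.5. Both genes were also highest in FRAIL1 1, the muscle of the same number. Control 1 also held 125 CPM of Ctsl against 116, and Control 2 held 536 CPM of Ctsb against 507.

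The other 8 were in FRAIL1 5, the muscle that stood apart on the first principal component. It held 1969 CPM of Col1a1 against 934 in the next FRAIL1 muscle, 2531 CPM of Col3a1 against 1173 and 435 CPM of Postn against 152. It held 541 CPM of Myh3 against 216, 876 CPM of Myh8 against 390, 38.1 CPM of Itgav against 28.7, 387 CPM of Itgb1 against 323 and 19.4 CPM of Vcan against 10.8. Its Spp1, at 20.04 CPM, and its Itgam, at 12.2 CPM, were not raised in this way.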

How the results depend on the processing

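Of 10 markers, 1 was called higher by the edgeR test as reported, 5 with the replicate block, 6 by DESeq2's Wald test, 7 by DESeq2 with the block, 2 by voom, 3 by a fit that was not robust, 0 without a filter and 0 without FRAIL1 muscles 1 and 4; leaving out 1 muscle, or both numbered 5, gave 0 to 6. None was called lower in any fit. The scaling alternatives left the count at 1. Over all genes tested, 974 calls became 2186 with the replicate block, 2211 with DESeq2, 2875 with DESeq2 and the block, 1756 with voom, 364 to 2110 when 1 muscle was left out (2305 with the block and without both numbered 5), 148 without FRAIL1 1 and 4, and 10 with the block and without numbers 1 and 4. In the further lists together, 24 calls became 49, 47 and 67 with the block, DESeq2 and both, 13 to 51 when 1 muscle was left out (40 with the block and without both numbered 5), 4 without FRAIL1 1 and 4, and 0 with the block and without numbers 1 and 4. The cause of these differences was not tested. Of 22 named genes called, 9 (Abca1, Apoe, Axl, Cd63, Ctsl, Lgmn, Myh3, Mymk and Tek) kept the call in all 12 fits that left out 1 muscle; Abcg1 and Ckm kept it in 3, Cd44, Ctsb, Itgb1, Lgals3 and Postn in 4, Flt1 in 5, Itgav in 7, Cx3cr1 and Myh8 in 10, S100a4 in 11 and Vwf in 2.

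With sign flips within a number (the replicate block), the differences in log2 ratio of Trem2 to Mrc1 (1.11), Spp1 to Cd163 (1.69) and Lgals3 to Adgre1 (0.48) passed the threshold. With 1 muscle left out these differences ran from 0.78 to 1.36, 1.10 to 2.08 and 0.38 to 0.61, and passed it without Control 1, and also without FRAIL1 3 for the first and FRAIL1 5 for the last. That of Itgam to Csf1r ran from -0.29 to 0.037 and was 0.052 without both numbered 5. Some signs turned. Without FRAIL1 1 and 4, the log2 fold change was -0.16 for Itgam (0.46 with all muscles), -0.032 for Itgax (0.84), and, for genes with values near 0, -0.064 for Ccr2, -0.21 for Csf1 and -0.17 for Nkg7. Csf1 was also -0.014 with the block, -0.021 with DESeq2 and the block and -0.13 with the block and without numbers 1 and 4; Gzma was -0.0077, -0.018 and -0.0046 in these fits and -0.010 with the block and without number 5; Nkg7 was -0.013, -0.020 and -0.051 in these, -0.0031 with DESeq2's size factors and -0.0027 with its Wald test. With 1 muscle left out, Ccr2 ran from -0.066 to 0.19, Csf1 from -0.13 to 0.086, Gzma from -0.12 to 0.18 and Nkg7 from -0.14 to 0.12. By ranks, the correlation of Mrc1 and Cd163 was 0.24 and that of Cd163 and Itgam -0.014. Leaving out muscles 1 and 4 was chosen after seeing the data.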
